A study of Homo sapiens with 9 samples.

Results

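Ribosomal protein processed pseudogenes are intronless copies of ribosomal protein genes. The genes described here were chosen by symbol, annotated class and abundance: a ribosomal protein symbol followed by P and a number, the class processed pseudogene, and a summed read count of at least 90 over the 9 libraries. This left 246 of 1482 such pseudogenes, among 78986 genes in the table, and the 246 belonged to 67 parent genes (39 of the large and 28 of the small ribosomal subunit by symbol). The other 1236 pseudogenes fell under that sum, held 1.18% of the counts of all 1482, and 526 of them were at 0 in every library. Because the summed count chose the members, their abundance is given as a description, while the differences between p53 groups were tested. The libraries were made from HEK293T cells, a human embryonic kidney line named HEK 293 in the sample labels, that stably overexpressed wild-type (WT) p53, G245S p53 or R273H p53, each substitution lying in the DNA-binding domain of this transcription factor. Every line was transduced with lentivirus and kept in puromycin, all groups including the WT group carried an introduced p53, no line without one was among the samples, and HEK293T cells also carry the SV40 large T antigen, which binds p53. There were 3 libraries per group from separate biological replicates. The 8 libraries used in the tests held 7325514 to 9667306 counts, and WT replicate 3 held 1486315, below the limit of 4096044 (0.5 times the median of the others), so it was left out of the tests and WT has n = 2 there.

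Processed pseudogenes arise when a mature mRNA is reverse transcribed and inserted at a new place in the genome, so they carry the joined exons of the parent without its promoter. Ribosomal protein genes, which encode the proteins of the large and small ribosomal subunits and are transcribed strongly in dividing cells, have left more such copies than most gene families. A read from a ribosomal protein mRNA can align equally well to the gene and to its copies. In these files a read with several alignments was counted as a fraction at each place, so a count that is not a whole number holds part of such a read. A whole number can also come about when fractions sum to one.

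Short aligned stretches are shown first because the likeness to the parent sets how a read can be assigned. Each is 30 bases long, runs 5′ to 3′ in the sense of the gene, and comes from the GRCh38 genome or, for parents, from GENCODE transcripts of the parent coding sequence. The stretch is the first with the most differences that has no gap, and capitals mark positions that differ within a pair. Substitutions are written as the parent base, its position counted from 1 at the A of the parent start codon, and the pseudogene base. RPS2P46, the pseudogene with the highest summed count (chr17:19446800-19446829, minus strand), differed from RPS2 at G36A and G53A.
RPS2: gggggggcccggGggccctggtggccctgG
RPS2P46: gggggggcccggAggccctggtggccctgA
RPS27P8 (chr1:202472088-202472117, minus strand) differed from RPS27 only at G10A in its stretch, and its relatives RPS27P3 and RPS27P4 had the letters of the parent there.
RPS27: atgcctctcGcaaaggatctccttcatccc
RPS27P8: atgcctctcAcaaaggatctccttcatccc
RPS15AP10 (chr1:45645899-45645928, minus strand), 1 of the few members with whole counts in every library, had 11 differences from RPS15A in its stretch, the first of them C284T and the last C310T.
RPS15A: ttcCatcccGCcAGtttgGTttcAtTGtaC
RPS15AP10: ttcTatcccAAcCAtttgACttcGtCAtaT
RPL10P3 (chr9:117180771-117180800, minus strand), the member that passed the test between p53 groups, differed from RPL10 at A561G, G566A and A576T.
RPL10: gacatggtggctgaAaagcGgctcatcccA
RPL10P3: gacatggtggctgaGaagcAgctcatcccT
RPL17P18 (chr3:197850654-197850683, minus strand) differed from RPL17 at A280G, C291T and A301G.
RPL17: tgctgcacAtgcttaaaaaCgcagagagtA
RPL17P18: tgctgcacGtgcttaaaaaTgcagagagtG
RPL36AP37 (chr11:16974890-16974919, minus strand) was identical to the RPL36A mRNA over its whole length, and its capitals mark the bases on either side of the place where 2 parent exons are joined.
RPL36AP37: ctctgtacgcccaGGGAaagcggcgttatg

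Over all 246 members the best match among ribosomal protein transcripts was the parent given by the symbol. Identity to the parent mRNA had a median of 95.2% and ran from 79.0% to 100%, with 24 members at 99% or more, 35 under 90%, and 5 identical over their whole length. The members were 81 to 1311 bases long with a median of 483.5, and 238 of them were annotated as a single interval. An open reading frame of at least 95% of the parent codons was found in 78 members, and 83 kept a frame of under 50%, counting a frame that ran to the end of the annotated interval as open. In the GENCODE release 44 annotation, whose coordinates matched the file for all 246, 36 members lay in an intron of a protein-coding gene on the same strand, 5 overlapped an exon of another gene on the same strand and 113 overlapped a gene on the other strand.

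A few members held most of the counts. The 8 with the highest level held 40.6% of all 927523 member counts, the 25 highest held 68.5%, and the lower 123 held 2.7%. The summed count ran from 90.84 to 76821, with a median of 407. The members made up 1.2% to 1.47% of the counts in the 8 tested libraries, their parents 12.1% to 14.5%, and the 291 other processed pseudogenes that passed the same sum 0.580% to 0.676%.

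RPS2P46 is a copy of RPS2, a protein of the small subunit. It had normalised read counts (CPM, counts per 1000000 counts of the library after TMM scaling) of 1249 and 1191 in WT replicates 1 and 2, 1253 in WT replicate 3, 1062, 1131 and 1105 in G245S, and 1032, 1080 and 1137 in R273H. The tested WT libraries were above all 6 mutant libraries, yet the difference did not pass the test in either comparison (log2 fold change -0.14 ± 0.10 (SE), adjusted p = 0.835 for G245S and -0.17 ± 0.10, adjusted p = 0.922 for R273H, edgeR). RPL36AP37, a copy of the large subunit gene RPL36A inside an intron of PLEKHA7, had 832 and 679 CPM in WT, 557, 735 and 658 in G245S, 585, 621 and 653 in R273H, and 939 in WT replicate 3. Its groups overlapped for G245S, and the lower WT library lay above every R273H library. The difference for R273H was -0.28 ± 0.11 on the log2 scale with an adjusted p of 0.727 in edgeR, beside -0.26 for RPL36A.

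**Figure D1:**
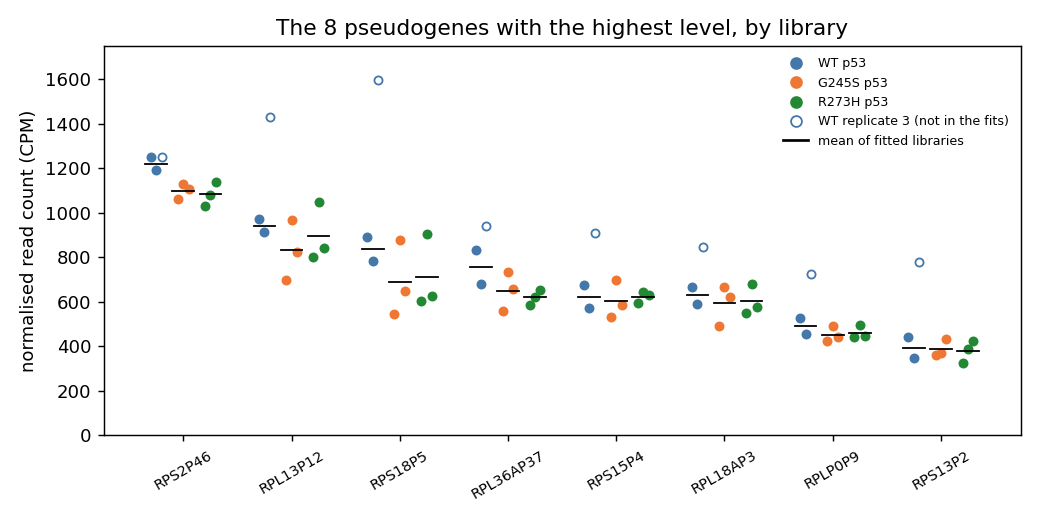
Normalised read count (CPM, linear axis) in each of the 9 libraries for the 8 members with the highest level. Points are libraries coloured by p53 group, the open point is WT replicate 3, and black bars are means of the tested libraries. RPS2P46 lies between 1032 and 1253 CPM in every library, and for the other 7 the open point lies above all filled points.

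Among the other 6, RPL13P12, RPL18AP3 and RPLP0P9 are copies of large subunit genes and RPS18P5, RPS15P4 and RPS13P2 of small subunit genes. RPL13P12 had 698 to 1046 CPM over the 8 tested libraries and RPS18P5 had 545 to 906 CPM. In both, the lowest library was G245S replicate 1 and the highest R273H replicate 2, and the groups overlapped. None of these 6 passed the test in any comparison, with adjusted p-values of 0.797 or more in edgeR for the G245S comparison.

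Relative to its parent, each of these abundant members held a steady count. The RPS2P46 count was 20.5% and 20.7% of the RPS2 count in WT, 20.2%, 20.2% and 21.0% in G245S, and 20.1%, 20.9% and 20.4% in R273H. The 3 groups overlapped within 1 percentage point, while WT replicate 3 stood above them at 25.04%. RPL36AP37 had 60.0% and 60.4% of the RPL36A count in WT, 58.2%, 59.4% and 59.7% in G245S and 58.5%, 60.4% and 59.0% in R273H, again with 64.0% in WT replicate 3. RPS13P2 was at 24.5% to 26.9% of RPS13 in the 8 tested libraries and at 41.8% in WT replicate 3. All 67 parents had a fractional count in at least 1 library themselves. A member and its parent can therefore hold fractions of the same reads, and their counts cannot be taken as independent. How much each pair shared was not measured.

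Per length, the members with the highest level relative to the parent were RPL36AP37, RPL21P16 and RPS15AP19. Against the parent length in the file, which joins all exons of all annotated transcripts, they stood at 735%, 341% and 315% of the parent CPM per kilobase. Against the length of the parent canonical mRNA they stood at 141%, 37.7% and 104%. The order and the side of 100% thus depended on the parent length, and 16 members exceeded the parent by the first length and 4 by the second. RPL36AP37 and RPL21P16 were identical to their parents, and none of their windows of 50 bases was found only in them.

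The share of distinct sequence divided the members. For each member, all windows of 50 bases were searched in both strands of the genome and in the parent transcripts, and a window found once in the genome and not in the parent was counted as found only in the member. In 8 members up to 10% of windows were found only there, in 48 members 10% to 50%, in 108 members 50% to 90% and in 82 members over 90%. These sets held 11.3%, 55.4%, 29.4% and 3.80% of the member counts. The median summed count fell from 8439 in the first set to 5697, 419 and 211 in the others. The median member had a fractional count in 9 libraries in the first 2 sets, in 8 in the third and in 7 in the last.

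**Figure D2:**
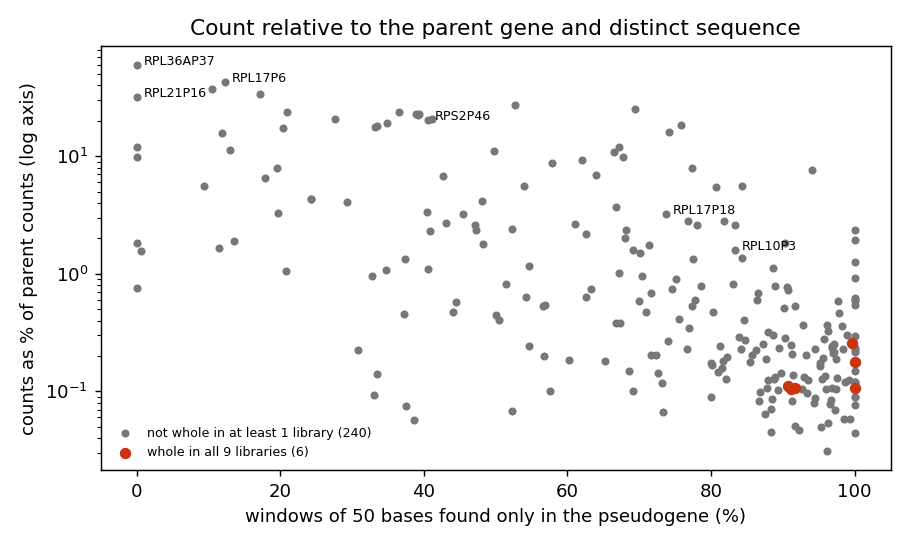
Count of each of the 246 members as a percentage of its parent count over the 8 tested libraries (log axis) against the percentage of its 50-base windows found only in the member. Grey points had a fractional count in at least 1 library and the 6 red points had whole counts in all 9. RPL36AP37, with no window of its own, lies highest at 59.4%, and the red points lie beyond 90% on the horizontal axis.

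A fractional count (more than 0.001 from a whole number) was found in at least 1 library for 240 members (97.6%), for all 67 parents and for 286 of the 291 other processed pseudogenes, against 62.3% of the 15244 genes with a sum of at least 90. For 77 members, RPS2P46, RPL36AP37 and RPS15P4 among them, the count was fractional in all 9 libraries. RPS12P16, RPS15AP10, RPSAP21, RPS15AP30, RPS27AP15 and RPL23AP32 were whole throughout. They are copies of small subunit genes except RPL23AP32, had identities of 80.7% to 92.0% to the parent, and 5 of the 6 lay in an intron of a gene on the same strand (RPS12P16 in PARD3, RPS15AP10 in GPBP1L1, RPSAP21 in MTR, RPS15AP30 in TCF7L2 and RPL23AP32 in SPTBN1). Together they made up 0.00788% of the counts of members and parents in WT, 0.0100% in G245S and 0.00907% in R273H. RPS15AP10, the highest of them by CPM, had 12 and 20 reads in WT, 8 in WT replicate 3, 41, 20 and 32 in G245S and 27, 17 and 13 in R273H.

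The families with the most members were RPS2 with 12, RPS3A with 11, and RPL7A, RPL17 and RPS15A with 10 each, of which RPL7A had the highest sum. RPS2 and RPS3A encode proteins of the small subunit and RPL7A one of the large subunit. Members held 22.4% of the RPS2 family counts, 46.3% of those of RPS3A and 17.1% of those of RPL7A. In the RPS2 family RPS2P46 had 1123 CPM on average over the tested libraries and RPS2P7 146, and in the RPS3A family RPS3AP6 had 244 and RPS3AP26 214. Only in the RPL17 family did the members together exceed the parent, with 52.5% of the family counts, and RPL17P6 alone reached 42.8% of the RPL17 count. RPL17 shared 32.9% of its exon bases with other genes annotated on the same strand, a readthrough gene among them. There were 17 families with 1 member.

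RPS27P3, RPS27P4 and RPS27P8, copies of the small subunit gene RPS27 on different chromosomes, were chosen as an example after their values were seen. RPS27P3 had counts of 909 and 678.5 in WT, 927, 828 and 950 in G245S and 840.2, 712 and 886 in R273H. RPS27P8 had 867 and 639 in WT, 883, 784 and 902 in G245S and 805, 677 and 849 in R273H, lower than RPS27P3 in each of these libraries and in the same order of libraries. RPS27P4 lay between 726 and 964. Of the 50-base windows of the 3, 70.7% to 75.7% occurred in at least 1 of the other 2, and 70.7% to 75.7% occurred in RPS27 transcripts.

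Just inside the sum of 90 were RPL12P12 with 90.84, RPS10P13 with 93.8 and RPS15AP38 with 94.4, and just outside were RPL17P22 with 89.8, RPS15AP11 with 89.7 and RPS27AP19 with 87.4. Their levels were 0.79 to 1.93 CPM inside and 0.21 to 2.77 CPM outside over the tested libraries. With a limit of 45 there were 323 members and with a limit of 180 there were 182.

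The levels of members differed between libraries of the same group, and did so most in members with distinct sequence. The SD of log2 CPM within groups (5 residual degrees of freedom) had a median of 0.14 over the 67 parents, 0.17 and 0.15 over the members with up to 10% and 10% to 50% of their windows found only there, 0.25 over those with 50% to 90%, and 0.46 over those with over 90%. The members with over 90% were also the lowest, with a median of 3.02 CPM, so counting error was larger there. Their median deviation from the mean of the tested libraries, on the scale of log2(CPM + 0.1), was -0.18 in WT replicate 1, 0.38 in WT replicate 2 and 1.05 in WT replicate 3. It was -0.62, 0.0045 and 0.0149 in G245S replicates 1, 2 and 3 and 0.10, 0.45 and -0.10 in R273H replicates 1, 2 and 3. G245S replicate 1 was thus the lowest and R273H replicate 2 the highest of the tested libraries, and libraries of each group lay on both sides of 0 or at it. Over the 8 members with up to 10% the median deviation lay between -0.15 and 0.18 in all 9 libraries, and single members lay further out, such as RPL21P16 at 1.19 and RPS26P6 at -1.08 in WT replicate 3.

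**Figure D3:**
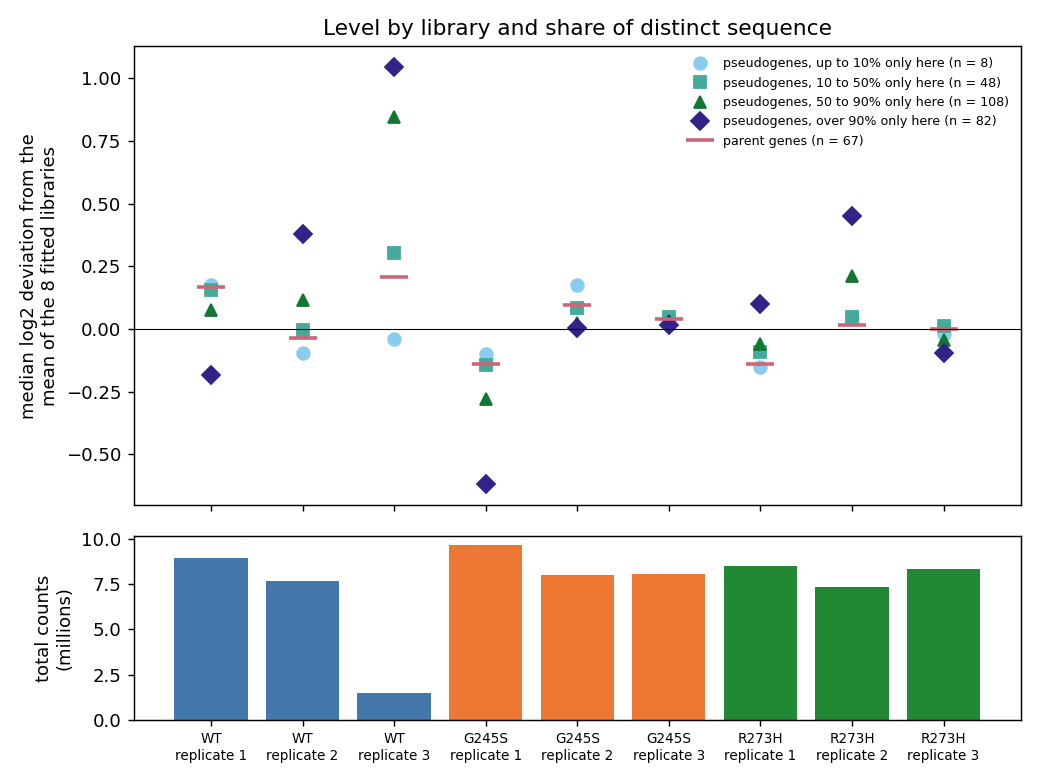
Top: median deviation of log2(CPM + 0.1) from the mean of the 8 tested libraries, by library, for members grouped by the percentage of 50-base windows found only in them and for the 67 parents. Bottom: total counts of each library. The most distinct members run from -0.62 in G245S replicate 1 to 1.05 in WT replicate 3, the libraries with the most and the fewest counts.

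The total count of a library moved with these deviations. G245S replicate 1, with the lowest deviation, had the most counts of the tested libraries (9667306), and R273H replicate 2 and WT replicate 2, with the highest, had the fewest (7325514 and 7683597). WT replicate 3, with 1486315, lay above all of them. The part of depth in this pattern was not tested. In the 23 most distinct members that averaged at least 5 CPM, the deviations were -0.54 in G245S replicate 1, 0.38 in R273H replicate 2, 0.23 in WT replicate 2 and 0.94 in WT replicate 3. The 291 other processed pseudogenes had medians of -0.17, 0.09, 0.15 and 0.37 in the same 4 libraries, and the parents -0.14, 0.02, -0.04 and 0.21.

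The members' share of the counts of members and parents together did not separate the p53 groups. It was 9.20% and 9.52% in WT, 9.05%, 9.29% and 9.21% in G245S, and 9.37%, 9.58% and 9.22% in R273H. The means were 9.36% ± 0.23 (SD, n = 2), 9.18% ± 0.12 (n = 3) and 9.39% ± 0.18 (n = 3), and the ranges overlapped. An exact permutation test of 2 against 3 or of 3 against 3 libraries cannot go below p = 0.1, so none was run. WT replicate 3 had 11.3%, and with it the WT mean was 10.0%.

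Whether a member changed with the p53 allele was tested across all genes with edgeR on rounded counts. Between G245S and WT, 0 of 246 members passed an adjusted p of 0.05, against 20 of 15893 genes tested (0.126%). At an unadjusted p under 0.05 there were 28 members (11.4%), 3 higher and 25 lower in G245S, against 6.66% of all genes (3.35% higher and 3.3% lower). That number of members moved when a single library was left out: it was 12 without G245S replicate 1, 47 without G245S replicate 2 and 34 without G245S replicate 3. The share of all genes in those 3 fits is not given here, so whether all genes moved alike was not tested. DESeq2 also called 0 members, against 0.113% of all genes, with 12 at an unadjusted p under 0.05, against 2.3%. The median log2 fold change over members was -0.15, with 192 of 246 lower in G245S, beside 0.00 over all genes, -0.06 over the 67 parents and -0.15 over 289 other processed pseudogenes. The median rested in part on G245S replicate 1 and was -0.07 without it. Without G245S replicate 2 or 3 it was -0.21 or -0.22, and without WT replicate 1 or 2 it was -0.13 or -0.14. With all 3 WT libraries it was -0.31. It was -0.01, -0.12, -0.15 and -0.31 over the sets with up to 10%, 10% to 50%, 50% to 90% and over 90% of windows found only in the member, in the same direction as the library deviations above, whose part was not tested.

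Between R273H and WT, 1 of 246 members passed, against 22 of 16022 genes (0.137%). The member was RPL10P3, which was higher in R273H, as were 0.025% of all genes. At an unadjusted p under 0.05 there were 13 members (5.28%), 3 higher and 10 lower, against 6.11% of all genes (2.78% higher and 3.33% lower). The 13 became 6 without R273H replicate 1, 22 without R273H replicate 2 and 20 without R273H replicate 3. For these fits too the share of all genes is not given here. DESeq2 called 0 members, against 0.144% of all genes, with 6 at an unadjusted p under 0.05, against 2.14%. The median log2 fold change over members was -0.06, beside 0.00 over all genes, -0.10 over the parents and -0.05 over 290 other processed pseudogenes. It was -0.14 without R273H replicate 2 and with all 3 WT libraries, -0.01 without R273H replicate 3, -0.02 without R273H replicate 1 and -0.03 without WT replicate 2. The 2 comparisons share the WT libraries. No parent passed in either, with 0 at an unadjusted p under 0.05 in G245S and 1 in R273H by edgeR, and 2 and 7 by DESeq2, which also called 0. Among the 83 cytosolic ribosomal protein genes tested, which include the parents, 1 passed in each comparison and was lower than in WT.

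Of the 246 members, 156 lay within 0.25 log2 units of their parent's fold change in G245S and 185 in R273H, and 6 and 1 lay at least 1 unit away. The parents themselves ran only from -0.25 to 0.12 in G245S and from -0.26 to 0.05 in R273H. The quartiles of all genes tested were -0.11 and 0.12 in G245S and -0.10 and 0.11 in R273H. Any gene with little change thus lies near a parent, and these counts do not show that members follow their parents.

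**Figure D4:**
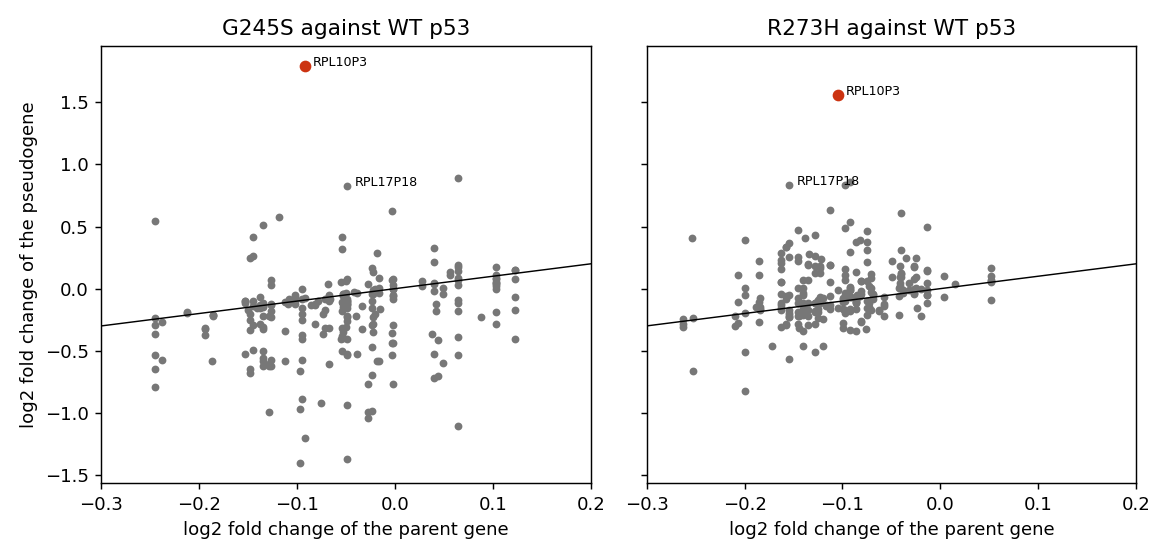
Log2 fold change of each of the 246 members against that of its parent gene, for G245S against WT (left) and R273H against WT (right). The line marks equal change, and members of one parent share a horizontal position. RPL10P3, in red, lies at 1.79 and 1.56 while its parent RPL10 lies at -0.09 and -0.10.

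RPL10P3 is a copy of RPL10, a protein of the large subunit. It had counts of 64.7 and 71.6 in WT, 246.5, 356 and 130.4 in G245S and 217, 242 and 136 in R273H, and 23.2 in WT replicate 3. These were 7.41 and 9.16 CPM in WT, 25.03, 45.7 and 15.99 CPM in G245S and 24.9, 33.0 and 16.1 CPM in R273H, and all 6 mutant libraries lay above both tested WT libraries. WT replicate 3, at 16.2 CPM, lay above the lowest library of each mutant group. The mean was 8.28 ± 1.24 CPM (SD, n = 2) in WT, 28.9 ± 15.2 (n = 3) in G245S and 24.7 ± 8.43 (n = 3) in R273H. On the log2 scale R273H exceeded WT by 1.56 ± 0.24 (SE), with an adjusted p of 0.0147 in edgeR, and G245S by 1.79 ± 0.34, with an adjusted p of 0.0780. The call in R273H was lost with all 3 WT libraries (1.42, adjusted p = 0.0983), without WT replicate 1 (1.41, adjusted p = 0.102) and in DESeq2 (1.57, adjusted p = 0.0703), each with the same direction. The G245S difference passed in edgeR without its replicate 2 (1.33, adjusted p = 0.00589) and without its replicate 3 (2.08, adjusted p = 0.0134). It also passed without the filter on low counts (1.80, adjusted p = 7.4e-28 in edgeR), a fit whose share of all genes called is not given here. The difference between the mutants was -0.23 ± 0.28, adjusted p = 0.994.

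RPL10 itself had 1508 and 1384 CPM in WT, 1212, 1435 and 1405 in G245S and 1307, 1366 and 1357 in R273H. Its log2 fold changes were -0.09 and -0.10. The G245S and WT libraries overlapped, and both tested WT libraries lay above every R273H library. The RPL10P3 count was 0.491% and 0.662% of the RPL10 count in WT, 1.14% to 3.18% in G245S, 1.19% to 2.41% in R273H, and 1.29% in WT replicate 3. Of its 50-base windows, 83.3% were found only in RPL10P3 and 7.64% occurred in RPL10 transcripts.

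RPL10P3 (chr9:117180628-117181095, minus strand) lies in an intron of ASTN2, which encodes a neuronal membrane protein and is on the same strand. ASTN2 had 9.28 and 7.42 CPM in WT, 8.37 in WT replicate 3, 3.76, 5.39 and 4.29 in G245S and 5.85, 4.90 and 3.67 in R273H, and all 3 WT libraries lay above all mutant libraries. Its log2 fold changes were -0.91 ± 0.21 (adjusted p = 0.208) and -0.80 ± 0.21 (adjusted p = 0.365), opposite in sign to those of RPL10P3 and not past the threshold. The first 30 bases of RPL10P3 overlap SNORA70C on the same strand, a small nucleolar RNA gene (chr9:117181066-117181200) listed at 0 in all 9 libraries. Bases 1 to 241 of RPL10P3 matched the RPL10 locus without a break (chrX:154400386-154400626, 94.6% identity), a stretch that begins with the last 30 bases of SNORA70 within RPL10, and bases 240 to 452 matched chrX:154400700-154400913. The canonical RPL10 mRNA matched only bases 76 to 452, so the start of this member carries sequence of the parent locus that the spliced mRNA lacks. Whether the counts at RPL10P3 came from transcripts starting there, from ASTN2 introns or from reads of RPL10 was not tested.

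**Figure D5:**
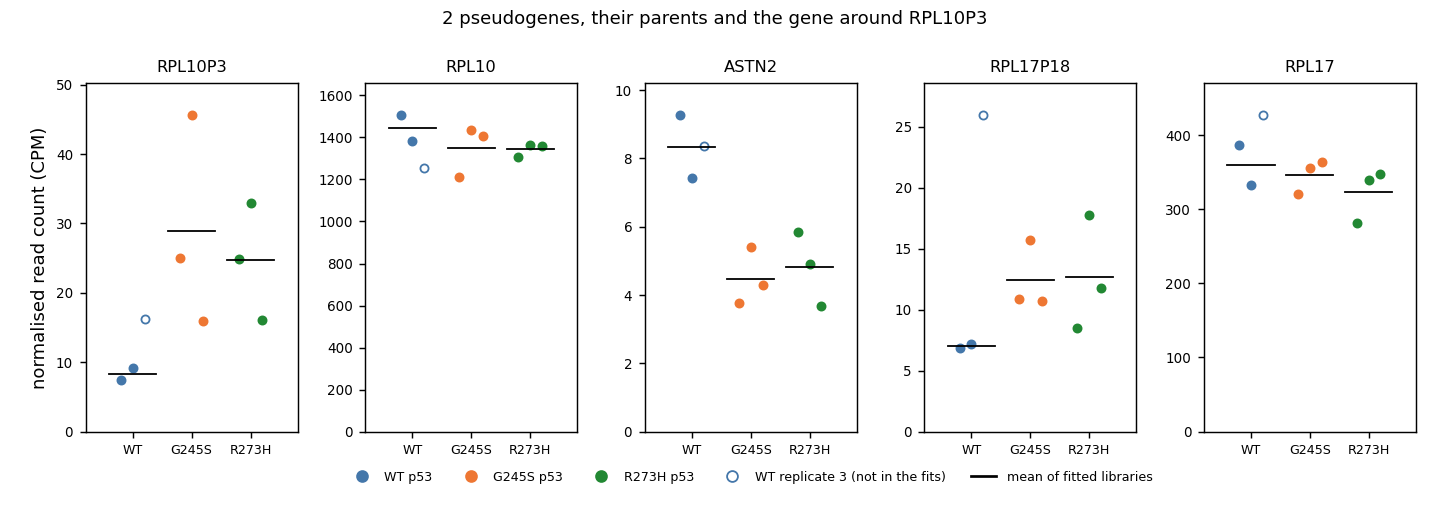
Normalised read count (CPM, linear axes from 0) by library for RPL10P3, its parent RPL10, the surrounding gene ASTN2, RPL17P18 and its parent RPL17. Points are libraries, open points are WT replicate 3, and black bars are means of the tested libraries. For RPL17P18 the open point lies at 26.0 CPM, above all mutant libraries.

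RPL17P18 is a copy of RPL17, a protein of the large subunit, and kept an open frame of 184 codons, the length of the parent frame. It had 6.86 and 7.20 CPM in WT, 10.8, 15.8 and 10.7 in G245S and 8.47, 17.8 and 11.8 in R273H, and 26.0 in WT replicate 3. The tested WT libraries lay below all mutant libraries, and the WT library that was left out lay above all of them. The log2 fold changes were 0.83 ± 0.19 in G245S (adjusted p = 0.228) and 0.84 ± 0.25 in R273H (adjusted p = 0.499), beside -0.05 and -0.15 for RPL17. With all 3 WT libraries they were 0.42 and 0.44 (adjusted p = 0.873 and 0.964 in edgeR). Neither difference passed in DESeq2, with adjusted p-values of 0.504 and 0.917. Without the filter on low counts both differences passed in edgeR, with adjusted p-values of 0.00167 and 0.00164. The log2 fold changes in that fit were 0.84 and 0.83, close to those with the filter. The share of all genes that passed in it is not given here, so these calls have no background beside them.

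RPS15AP10, whole in all libraries, had the third highest mean change, with 1.37 and 2.56 CPM in WT, 4.16, 2.57 and 3.92 in G245S and 3.10, 2.31 and 1.54 in R273H. It differed from WT by 0.89 ± 0.34 on the log2 scale in G245S (adjusted p = 0.671) and by 0.26 ± 0.37 in R273H. At the other end, RPL3P9, RPL12P50 and RPL17P11, all copies of large subunit genes, had the lowest mean change. RPL3P9 had 0.48 and 4.05 CPM in WT, and its log2 fold change of -1.41 ± 0.68 in G245S turned to 0.83 without WT replicate 2. RPL12P50 had 2.73 and 3.07 CPM in WT and at most 2.39 CPM in the 6 mutant libraries, without overlap, at -0.68 ± 0.34 and -0.83 ± 0.30 (adjusted p = 0.768 and 0.709). RPL17P11 had 1.95 and 3.43 CPM in WT, 0.25, 1.35 and 1.75 in G245S and 3.31, 2.72 and 1.72 in R273H. All 4 had at most 3.55 CPM on average in every group and none passed the test. RPL17P11 was lower in G245S than in WT without the filter on low counts (-1.36, adjusted p = 0.0371 in edgeR), beside -1.37 with it. The share of all genes called without the filter is not given here.

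Between R273H and G245S, 0 of 246 members passed in edgeR, against 0 of 15614 genes (0%), and DESeq2 called 0, against 0.0064%. At an unadjusted p under 0.05 there were 40 members (16.3%) in edgeR, 39 higher and 1 lower in R273H, against 4.75% of all genes (2.29% higher and 2.46% lower), and 20 in DESeq2, against 1.75%. The 40 became 14 without G245S replicate 1 and 23 without R273H replicate 2, again with no share of all genes given for these fits. The median log2 fold change over members was 0.06, beside -0.0048 over all genes, -0.05 over the parents and 0.05 over 285 other processed pseudogenes. It was -0.02 without G245S replicate 1, 0.01 without R273H replicate 2, 0.15 without G245S replicate 2, 0.10 without G245S replicate 3 or R273H replicate 1, and 0.09 without R273H replicate 3. Over the sets with up to 10%, 10% to 50%, 50% to 90% and over 90% of windows found only in the member it was -0.07, -0.02, 0.06 and 0.32. Of the 40 members, 23 were in the last set, for which G245S replicate 1 was the lowest and R273H replicate 2 the highest library.

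RPL10P1 and RPL12P2, copies of large subunit genes are given as examples chosen after their values were seen. RPL10P1 had 2.20 and 6.27 CPM in WT, 1.42, 2.25 and 1.66 in G245S and 4.19, 5.58 and 2.75 in R273H, and 9.42 in WT replicate 3. Its R273H libraries lay above its G245S libraries (1.18 ± 0.30, adjusted p = 0.921), while the WT libraries spanned both groups. RPL12P2 had 18.7 and 32.4 CPM in WT, 11.3, 18.1 and 19.4 in G245S and 21.4, 36.9 and 18.8 in R273H, and 54.4 in WT replicate 3. Its lowest library was G245S replicate 1 and its highest tested library R273H replicate 2, and the mutant groups overlapped (0.65 ± 0.22, adjusted p = 0.948). Without the filter on low counts both passed between the mutants in edgeR (adjusted p = 0.00473 and 0.000163), in a fit whose share of all genes called is not given here.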

How the data were processed

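The authors deposited 1 table of strand-specific estimated counts per gene for 9 RNA-seq libraries. Per the study's methods and the labels, reads were filtered with fastp 0.24.0, aligned to GRCh38 with STAR 2.7.11, deduplicated by molecular identifier and counted with featureCounts (Subread 2.1.1), with multi-mapping reads assigned as fractions. The 9 CPM columns were not used. Counts were rounded and tested with edgeR 4.0.16 (TMM, filterByExpr, quasi-likelihood F test, Benjamini-Hochberg adjustment over all genes), and with DESeq2 1.42.0 as an alternative. Pseudogene sequences were aligned with BLAST+ 2.17.0 to GENCODE release 44 transcripts of the parent, which is the symbol without P and its number. The tests were tried on simulated data first. Named were the 8 highest members, every member called, the 3 highest and 3 lowest by mean change against WT among members of at least 1 CPM, the 3 largest families, 3 members on each side of the count limit, the 3 highest relative to the parent, the 3 most often fractional and the 3 highest whole ones. RPS27P3, RPS27P4, RPS27P8, RPL10P1 and RPL12P2 were added after their values were seen. The members and lists were chosen with earlier results of these data known. A count of 3 corresponded to 0.310 to 0.410 CPM in the tested libraries and to 2.02 CPM in WT replicate 3.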

Additional observations from a re-analysis of the deposited data

Results flagged for a closer look

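WT replicate 3, which was left out of the tests because of its depth and entered only the alternative with all 3 WT libraries, had a higher member share of ribosomal protein counts than the control libraries, at 11.3% against 9.20% and 9.52% in WT replicates 1 and 2. It also lay above the 6 mutant libraries, which ran from 9.05% to 9.58%.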

How the results depend on the processing

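Without the filter on low counts edgeR called 9, 2 and 13 members in G245S against WT, R273H against WT and R273H against G245S, where 0, 1 and 0 were called with it. RPL10P3 in G245S against WT had a log2 fold change of 1.80 without the filter and 1.79 with it. Its unadjusted p in edgeR was 8.5e-32 without the filter and 0.00013 with it. Correlations of library deviations ran from -0.168 to 0.299 for same-numbered libraries and from -0.280 to 0.184 for the others. These overlapping ranges do not settle whether the replicate numbers pair the libraries. With a replicate block 6, 3 and 4 members were called in edgeR, RPL17P18 in both WT comparisons (adjusted p = 0.00369 and 0.0391). The share of all genes called is not given for the fits without the filter, with the block or with 1 library left out. Counts of members called in those fits thus have no background beside them. In R273H against WT the call was lost, leaving 0, in DESeq2 and with all 3 WT libraries. The 6 members whole in every library also gave 0, but RPL10P3 is not among them, so its call could not appear there. Leaving out 1 library at a time gave 0 to 1 calls in each WT comparison (RPL10P3 in G245S without G245S replicate 2 or 3, RPL3P2 without WT replicate 1) and 0 in R273H against G245S. The median log2 fold change in G245S moved to -0.31 with all 3 WT libraries and to 0.26 over the 6 whole members, which gave -0.36 in R273H against G245S. The whole members held 0.00788%, 0.0100% and 0.00907% of ribosomal protein counts in WT, G245S and R273H, and the WT share was 10.0% with all 3 libraries. RPL10P3 in R273H against G245S ran from -0.52 to 0.23 and RPL3P9 in G245S from -2.29 to 0.83 when 1 library was left out. The causes were not tested, except that fewer genes entered for the whole members. Unrounded counts, RLE size factors and limits of 45 or 180 changed no call or median beyond the spread between libraries.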
